A study of Zea mays with 6 samples.

Results

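Auxin transport genes encode the proteins that carry the hormone auxin into, out of and within plant cells, together with proteins that act on these carriers. The 9 genes described here were taken by identifier from the 39283 genes of the deposited table. They are the exporter genes PIN1a (GRMZM2G098643), PIN1b (GRMZM2G074267), PIN1c (GRMZM2G149184) and PIN1d (GRMZM2G171702), the ABCB1 exporter gene BR2 (GRMZM2G315375), the importer gene AUX1 (GRMZM2G127949), the vacuolar transporter gene ZmWAT1 (GRMZM2G010372), the kinase gene BIF2 (GRMZM2G171822, a PINOID gene) and ZmBIG GRAIN (GRMZM2G178852). The rule used identifiers only and no measured value, but the genes were chosen with earlier results of these data known. The name AUX1 is used here for the importer, and the same name in the gene name table belongs to another identifier.

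RNA was sequenced from aerial parts of 7-day-old greenhouse seedlings of the maize inbred line B73. The cut parts were kept for 30 min in indole-3-acetic acid (IAA, the main natural auxin) with 1% DMSO, or in 1% DMSO alone, the solvent control. Each treatment had 3 replicates of 3 plants, so both groups share genotype, age, solvent and cutting. The labels give the IAA dose as 100 mM, whereas the study's methods give the same figure in μM.

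Auxin moves from cell to cell in a directed way. Importers of the AUX1 type bring IAA into the cell, PIN proteins placed on one side of the plasma membrane let it out on that side, and ABCB proteins add export that is less directional. Kinases of the PINOID type phosphorylate PIN proteins. In the shoot this flow sets where leaves and branches start.

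The values are FPKM, mapped fragments scaled to the length of the transcript and the size of the library, and the table lists 1 pooled value per gene and treatment. Because FPKM is scaled to length, levels can be set side by side between genes. The spread between replicates and the depth of the libraries are unknown here, so no error, interval or p-value is given, and neighbours in any order of levels cannot be said to differ beyond their spread. Ratios are IAA over DMSO. They were read against the 22524 genes that averaged at least 1 FPKM over both treatments, whose median log2 ratio was -0.04. The FPKM values of all genes summed to 785743 after IAA and 821595 after DMSO. Leaf photosynthesis genes were abundant in both treatments, since 7 such genes, among them rbcs1 and PEPC1, had between 283 and 1567 FPKM after IAA and between 227 and 1559 FPKM after DMSO. The shoot meristem gene kn1 had 3.70 FPKM after IAA and 4.50 FPKM after DMSO. GH3 (GRMZM2G378106), an auxin-conjugating enzyme gene known to respond early to auxin, had 50.5 FPKM after IAA and 4.95 FPKM after DMSO, a ratio of 10.2.

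All 9 transport genes were listed with a higher FPKM after IAA than after DMSO, but the sizes differed widely. ZmBIG GRAIN stood apart with a ratio of 5.44. PIN1a and PIN1b followed with 1.55 and 1.46. The ratios of ZmWAT1, PIN1d and PIN1c lay between 1.22 and 1.27, those of AUX1 and BR2 were 1.08 and 1.04, and that of BIF2 was 1.00. The filter of a mean of at least 1 FPKM was passed by 7 of the 9 genes, and not by ZmWAT1 and BIF2. An IAA value above the DMSO value was listed for 44.5% of all genes past the filter and for all 7 of the transport genes past it. Of these 7, PIN1c had 1.20 FPKM after IAA and 0.984 FPKM after DMSO. It thus passed the filter only through its IAA value, and its direction adds nothing to that count. A ratio of at least 2 was reached by 1 of the 7, ZmBIG GRAIN, against 0.972% of all genes past the filter. A ratio of at least 1.5 was reached by 2 of the 7, ZmBIG GRAIN and PIN1a, against 4.13% of all genes. None of the 7 was at or below 1/2 of its DMSO value, against 1.44% of all genes, and none was lower by at least 1.5-fold, against 5.22%. In whole aerial parts, more RNA per cell and more cells that express a gene cannot be told apart.

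**Figure D1:**
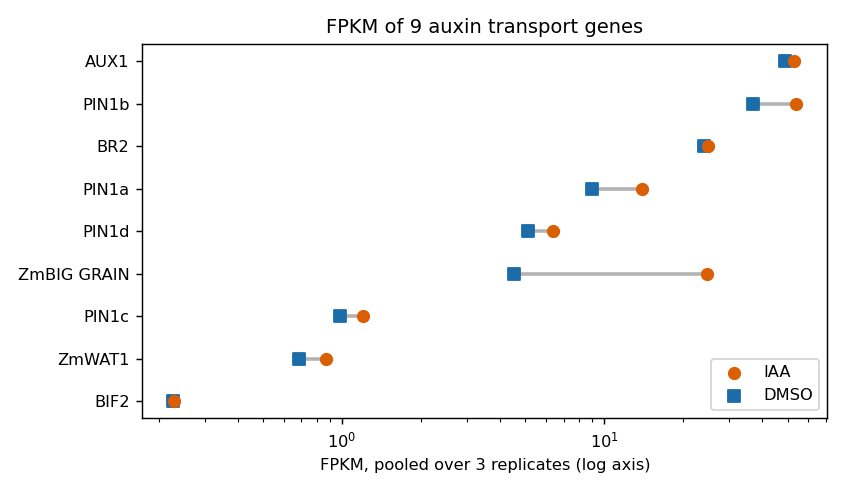
FPKM of the 9 auxin transport genes on a log axis, with the pooled IAA value as a circle and the pooled DMSO value as a square, ordered by the DMSO value. The circle lies to the right of the square for ZmBIG GRAIN by the widest margin (24.6 against 4.53 FPKM), whereas the symbols of BIF2 coincide.

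PIN1b, an exporter gene, had the highest level of the 9 genes after IAA, with 53.9 FPKM after IAA and 36.9 FPKM after DMSO, a difference of 17.1 FPKM and a log2 ratio of 0.55. Of all genes past the filter, 4.67% had a log2 ratio at least as high. In the band of genes with a mean of 20 to 100 FPKM, 2.68% of 5589 genes did. All such bands hold only genes listed above 0 in both treatments. The gene lies on chromosome 5 from 206777162 to 206780578 in B73v3, the genome version of the deposited table.

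PIN1a, on chromosome 9 from 3650989 to 3654397, had 13.9 FPKM after IAA and 8.94 FPKM after DMSO. Its log2 ratio of 0.63 was the second highest of the 9 genes. It was reached or passed by 3.46% of all genes past the filter, and by 2.54% of the 8964 genes with a mean of 5 to 20 FPKM. PIN1a and PIN1b are thus near the edge of what genes of like abundance showed, where the central 95% of log2 ratios ran from -0.67 to 0.63 at 5 to 20 FPKM and from -0.65 to 0.56 at 20 to 100 FPKM. Of the 7 leaf photosynthesis genes, 2 had ratios as large as PIN1a, PEPC1 with 1258.5 FPKM after IAA and 804.6 FPKM after DMSO, and lhcb6 with 1127 FPKM after IAA and 719.5 FPKM after DMSO. Of these 7 genes, 4 were higher and 3 lower after IAA, with ratios between 0.831 and 1.57. The part of such differences in the values of PIN1a and PIN1b was not tested.

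PIN1d and PIN1c both lie on chromosome 4, from 186818289 to 186821067 and from 182180280 to 182183396, 4.63 Mb apart. PIN1d had 6.36 FPKM after IAA and 5.10 FPKM after DMSO, a log2 ratio of 0.32. PIN1c had only 1.20 FPKM after IAA and 0.984 FPKM after DMSO, a log2 ratio of 0.29. These ratios were within the bulk of genes of like abundance, since 10.1% of the genes with a mean of 5 to 20 FPKM had a log2 ratio at or above that of PIN1d, and 19.6% of the 6455 genes with a mean of 1 to 5 FPKM had one at or above that of PIN1c.

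PIN1b was 44.8 times the level of PIN1c after IAA and 37.5 times after DMSO. PIN1a, PIN1b, PIN1c and PIN1d are related in sequence, and reads of stretches they share could have been split between them.

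The other PIN genes were listed in both directions, most of them at low values. In the name table, 5 further genes carried a PIN symbol, and only PIN10a (GRMZM2G126260) passed the filter. PIN10a had 10.9 FPKM after IAA and 12.9 FPKM after DMSO, a log2 ratio of -0.24, so it was listed above PIN1a after DMSO and below it after IAA. PIN8 (GRMZM5G839411) had 0.942 FPKM after IAA and 1.05 FPKM after DMSO. PIN5c (GRMZM2G040911) had 0.353 FPKM after IAA and 0.372 FPKM after DMSO. In Arabidopsis, PIN5 and PIN8 act at the endoplasmic reticulum, inside the cell, and not at the plasma membrane. PIN9 (GRMZM5G859099), of a group known from grasses and other monocots, had 0.793 FPKM after IAA and 0.705 FPKM after DMSO. PIN5a (GRMZM2G025742) had 0.694 FPKM after IAA and 0.339 FPKM after DMSO. Its log2 ratio of 1.03 rests on low values. In the band with a mean of 0.1 to 1 FPKM, 10.7% of 4933 genes were at least 2-fold higher after IAA and 11.2% at least 2-fold lower. Genes at 0 in 1 treatment are not in this band, so its spread is given as smaller than it was. Of the 5 genes, 2 were listed higher after IAA and 3 lower, and their median log2 ratio was -0.08. Without the filter, 45.8% of the 29617 genes above 0 in both treatments were listed higher, so this split is near that share. With 4 of the 5 below the filter, it gives no direction for the group. None of the 5 passed both the filter and a ratio of 2 in either direction.

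**Figure D2:**
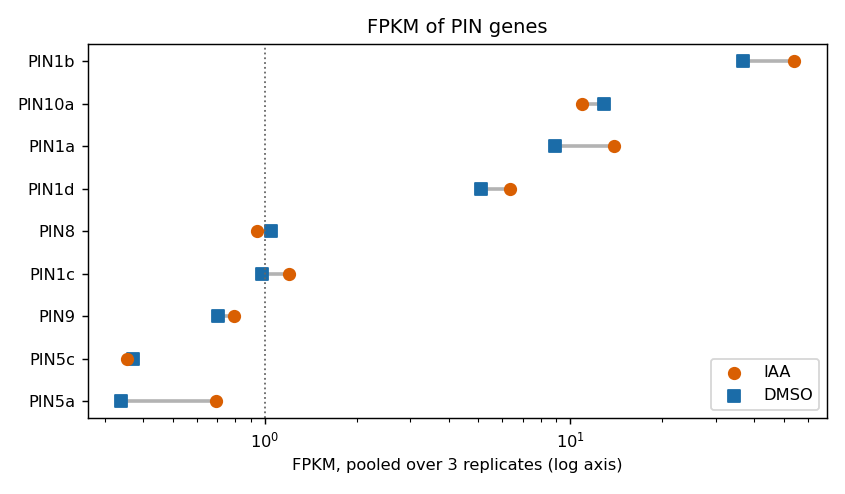
FPKM of the 9 PIN genes with a name in the list or in the name table, on a log axis, with IAA as circles and DMSO as squares. The dotted line marks 1 FPKM. PIN1b, PIN1a, PIN1d and PIN1c have the IAA circle to the right, PIN10a, PIN8 and PIN5c have it to the left, and 4 of the 5 genes taken from the name table lie around or below the line.

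BR2, the gene of the brachytic2 dwarf in which auxin transport down the stalk is reduced, had 24.9 FPKM after IAA and 23.9 FPKM after DMSO. Its log2 ratio was 0.06, and 36.3% of all genes past the filter were at or above it. BR2 lies on chromosome 1 from 202334824 to 202342008. After DMSO its level was between those of PIN1b and PIN1a.

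AUX1, for the importer, was the most abundant of the 9 genes after DMSO with 49.0 FPKM, and had 53.1 FPKM after IAA. The log2 ratio was 0.11, which 28.8% of all genes past the filter reached or passed. The gene lies on chromosome 3 from 178053577 to 178060075. After IAA it stood just below PIN1b.

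ZmWAT1 is related to Arabidopsis WAT1, which moves auxin out of the vacuole. The maize gene was listed at 0.868 FPKM after IAA and 0.685 FPKM after DMSO, on chromosome 4 from 240772557 to 240774669. Its log2 ratio of 0.34 was reached or passed by 31.0% of the genes with a mean of 0.1 to 1 FPKM.

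BIF2 encodes a kinase related to Arabidopsis PINOID, and its mutants form barren inflorescences with few branches and spikelets. It had the lowest level of the 9 genes, with 0.228 FPKM in each treatment, and lies on chromosome 1 from 173865554 to 173867297. AUX1 was listed at 233 times the level of BIF2 after IAA and 216 times after DMSO. At such a low level, in pooled values of unknown depth, the equal values do not show that the kinase gene was unchanged.

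ZmBIG GRAIN is named for rice BIG GRAIN1, a membrane-associated protein that promotes auxin transport and affects grain size. The maize gene spans 1335 bp on chromosome 1, from 16045987 to 16047321. It had 24.6 FPKM after IAA and 4.53 FPKM after DMSO, a difference of 20.1 FPKM. Its log2 ratio of 2.44 was 1.81 above that of PIN1a, the next of the 9 genes. Only 27 of the 22524 genes past the filter, ZmBIG GRAIN included, had a ratio as high. Any gene past the filter at 0 after DMSO counts among these 27. Among the 8964 genes with a mean of 5 to 20 FPKM, which leave such genes out, the share was 0.112%. By level it was the sixth of the 9 genes after DMSO, below PIN1d, and the fourth after IAA, next to BR2. Its level was 0.99 of that of BR2 after IAA and 0.189 of it after DMSO. Over all genes it was at rank 5870 after IAA and 16626 after DMSO, counted from the most abundant gene.

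**Figure D3:**
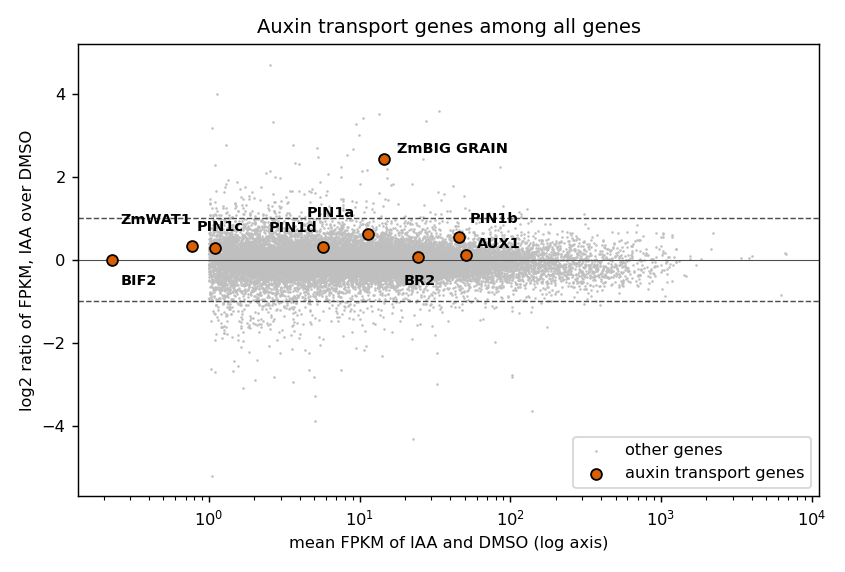
Log2 ratio of FPKM, IAA over DMSO, against the mean FPKM of the treatments on a log axis, for genes that average at least 1 FPKM and have values above 0 in both treatments (grey) and the 9 auxin transport genes (orange). Dashed lines mark 2-fold. ZmBIG GRAIN at 2.44 lies above the line, PIN1a and PIN1b at 0.63 and 0.55 lie in the upper part of the grey cloud, and BR2 and AUX1 lie inside it.

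In sum over the 9 genes, the level was 179 FPKM after IAA and 130 FPKM after DMSO, a difference of 48.7 FPKM. ZmBIG GRAIN accounted for 41.2% of this difference and PIN1b for 35.1%. The listed difference of PIN1b was thus nearly as large as that of ZmBIG GRAIN, with a much smaller ratio. The log2 ratio of PIN1b, 0.55, lay within the central 95% of genes with a mean of 20 to 100 FPKM, which ran up to 0.56. Its share of the summed difference carries no error and may hold spread between replicates. Together the 9 genes held 0.0228% of all FPKM after IAA and 0.0159% after DMSO.

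None of 4 alternatives could reverse a gene listed higher after IAA, so they bear on the size of the ratios only. An equal amount added to both values keeps the direction. Setting the median to 0 and dividing by the sum both raised every ratio here. With 0.1 or 1 FPKM added, with the median of all genes set to 0, or with each treatment divided by its own sum, the log2 ratio lay between 2.21 and 2.51 for ZmBIG GRAIN, between 0.58 and 0.70 for PIN1a and between 0.54 and 0.61 for PIN1b. Smaller log2 ratios moved by over 1.5 times between the alternatives, with values between 0.15 and 0.41 for ZmWAT1, between 0.15 and 0.36 for PIN1c, between 0.11 and 0.18 for AUX1 and between 0.05 and 0.12 for BR2. PIN1d lay between 0.27 and 0.38. BIF2 stayed above 0 by as little as 0.0006, so no direction can be read for it.

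**Figure D4:**
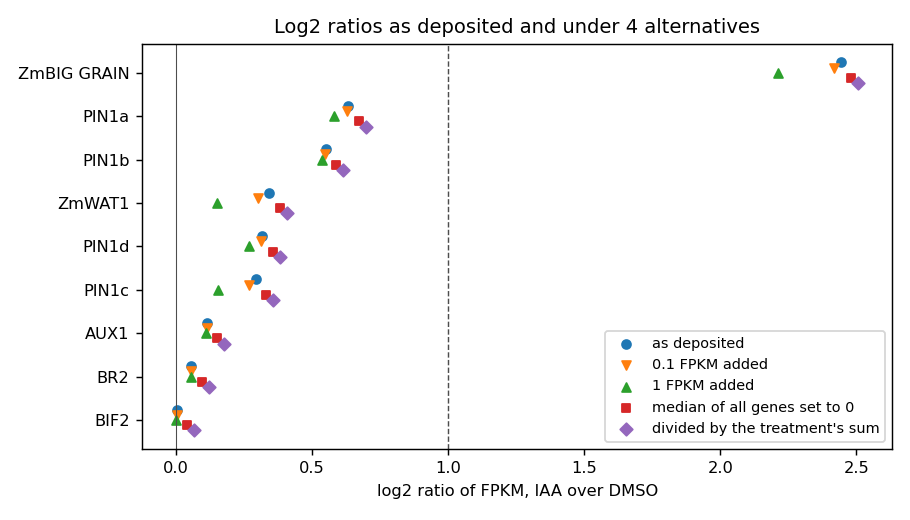
Log2 ratio of FPKM, IAA over DMSO, of each auxin transport gene as deposited and under 4 alternatives, ordered by the deposited ratio. The dashed line marks 2-fold. The points of ZmBIG GRAIN lie between 2.21 and 2.51, and no point of another gene reaches the dashed line.

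None of the 9 genes overlapped another gene of the table. Within 100 kb on either side of them, 39 other genes were listed, of which 22 passed the filter. The log2 ratios of these 22 neighbours lay between -0.37 and 0.40, and none was higher or lower by at least 1.5-fold. Of all genes past the filter, 4.13% were higher and 5.22% lower by that much, so few were to be looked for among 22. The only neighbour of ZmBIG GRAIN past the filter, GRMZM2G156486, ended 49247 bp before it and had 21.9 FPKM after IAA and 19.98 FPKM after DMSO. The high ratio of ZmBIG GRAIN was not seen in this neighbour. PIN1a had no other gene within 100 kb. GRMZM2G162233 started 12897 bp after PIN1b and had 537.8 FPKM after IAA and 430.9 FPKM after DMSO. Its log2 ratio was 0.32, below the 0.55 of PIN1b.

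**Figure D5:**
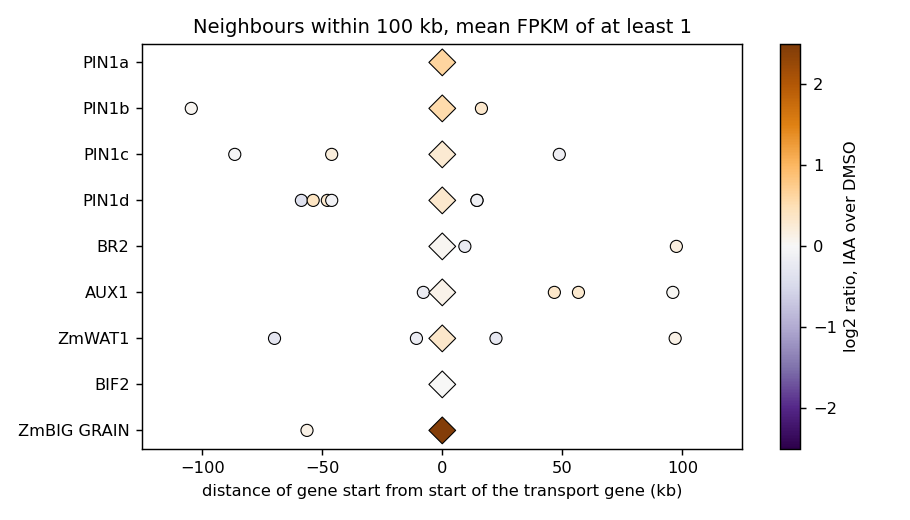
Genes with a mean of at least 1 FPKM within 100 kb of each auxin transport gene (circles), placed by the distance of their start from the start of that gene (diamond), in kb, and coloured by the log2 ratio of FPKM, IAA over DMSO. The diamond of ZmBIG GRAIN is the darkest at 2.44, and the circles lie between -0.37 and 0.40.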

How the data were processed

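Stranded RNA-seq libraries of 3 replicates per treatment were made from B73 seedling parts. The authors trimmed the reads with trimmomatic and mapped them to B73v3 with TopHat2 (version 2.1.1 in the submitters' processing notes), then ran Cuffdiff (2.2.1). The deposited FPKM values are pooled over the replicates, so that each gene has 1 per treatment. Their fold changes, test statistics, p-values, q-values and calls stand in the same table and were not used. Whether the counting used strand is not given in the sources used here. Depth is unknown. Among 457 genes above 0 and under 0.03 FPKM in both treatments, at most 10 shared 1 bin of 0.02 in the log2 ratio. Values pooled over 3 replicates need not keep the steps of whole reads, so this count cannot give the depth.

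Log2 ratios were computed from the FPKM values without a pseudocount. Genes that averaged at least 1 FPKM were compared, and 18 of these listed at 0 in 1 treatment were counted as past every fold. The abundance bands and the shares with no filter leave out genes at 0 in either treatment. Because values are pooled, no test was run. Counts past 2-fold describe these pooled values. The arithmetic of the ratios and counts was checked on simulated data with known ratios, which is no test of the treatment. Alternatives were pseudocounts of 0.1 and 1 FPKM, centring, scaling by the sum, no filter, a minimum of 5 FPKM and a 1.5-fold limit.

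Locus starts were raised by 1. Names came from the list of genes, the study and the RefSeq table of Zm-B73-REFERENCE-NAM-5.0, which holds 18843 of the 39283 identifiers and 7 of the 9. That table has no descriptions, so further transport genes could be taken by PIN symbol only, and the leaf genes by symbols chosen after the table was seen. Of 6 further PIN identifiers, 1 lay on another chromosome than its symbol and was left out. All 9 genes were named by rule, with GH3 and the other PIN genes. The neighbours and the abundance bands were chosen after seeing the data. The genes and lists were chosen with earlier results of these data known. Sums over some gene groups are not reported here. Computations were done in Python 3.11.15 with pandas 2.3.3 and numpy 2.4.6, and plots with matplotlib 3.10.9.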

Additional observations from a re-analysis of the deposited data

How the results depend on the processing

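No paired analysis was possible because replicates were pooled in the deposited values, and for the same reason limma, the replicate block and leaving out replicates were not run. All 9 transport genes were listed higher after IAA under both scalings and both pseudocounts, a count added after seeing the data. This outcome was fixed in advance, since equal pseudocounts keep the direction and both scalings raised every ratio. Of all genes past the filter, 44.5% were listed higher as deposited and with either pseudocount. The share was 50.0% with the median set to 0 and 53.9% with each treatment divided by its sum. The median log2 ratio of the 9 genes was 0.32, against 0.30 with 0.1 FPKM added, 0.15 with 1 FPKM added, 0.36 with the median of all genes set to 0, 0.38 with each treatment divided by its sum, and 0.30 without ZmBIG GRAIN, the last an alternative added after seeing the data. Adding 1 FPKM shrinks the ratios of low genes by construction. The number of transport genes past the limit upward was 1 with a ratio of 2, and 2 with a ratio of 1.5. It stayed at 1 with no filter, with a minimum of 5 FPKM, and under both scalings and both pseudocounts, and the number downward was 0 throughout. With no filter, 4.02% of the 29617 genes above 0 in both treatments were past 2-fold upward and 4.33% downward. With a minimum of 5 FPKM the shares were 0.585% and 0.816% of 16056 genes. Genes at 0 in 1 treatment were left out of the former and counted as past 2-fold in the latter. Under the scalings and pseudocounts the shares lay between 0.515% and 1.2% upward and between 0.737% and 1.31% downward. For so few transport genes, 0 downward is near these shares. Of the other PIN genes, 0 were past 2-fold upward, against 1 (PIN5a) with no filter on low values. Without a known depth, the precision of low genes such as BIF2 could not be given.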
